A study of Mus musculus with 6 samples.

Results

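Genes for 10 secreted proteins that bring white blood cells into a tissue or drive their production were followed here in a mouse breast cancer cell line, 410.4. They were chosen by symbol from the gene table, which held all 10 of them among 55809 symbols. Cxcl1, Cxcl2, Cxcl3, Cxcl5 and Ppbp are neutrophil-attracting CXC chemokines. Cxcl16, Ccl20 and Ccl2 are chemokines for other leukocytes, and Csf3 and Csf2 are the granulocyte and granulocyte-macrophage colony-stimulating factors. In 3 libraries the cells had spent 2 days in NET-conditioned medium, DMEM with 0.5% serum that holds isolated neutrophil extracellular traps (NETs). The other 3 libraries came from cells kept for the same time in control medium with 0.5% serum. Activated neutrophils release NETs as strands of chromatin that carry proteins of their granules. All libraries are of the same cell line. Whether replicates were grown separately is not stated, so p-values measure the spread between these libraries only, which may be technical. How the neutrophils were obtained and activated is not given in the labels, and the media may have differed in more than NETs.

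Chemokines are small secreted proteins that bind receptors on leukocytes and guide them along a gradient. The CXC chemokines with a glutamate-leucine-arginine motif before the first cysteine pair act on Cxcr2, the main chemokine receptor of mouse neutrophils. Granulocyte colony-stimulating factor makes the bone marrow produce and release neutrophils. Tumour cells that secrete these proteins are known to draw neutrophils to the tumour, and their genes are textbook targets of the transcription factor NF-kB with short-lived messenger RNAs.

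The promoters of the 3 GRO-type chemokine genes are shown because they carry a sequence that few promoters hold. A window of 250 bases before to 50 bases after the gene start was found for 6 of the 10 genes (Cxcl1, Cxcl2, Cxcl3, Ppbp, Ccl20 and Csf2) in the RefSeq table of the GRCm38.p6 build. Capitals mark matches, on either strand, to the NF-kB consensus, and the windows read 5′ to 3′ along the gene.
Cxcl1, chr5:90890995-90891294, + strand: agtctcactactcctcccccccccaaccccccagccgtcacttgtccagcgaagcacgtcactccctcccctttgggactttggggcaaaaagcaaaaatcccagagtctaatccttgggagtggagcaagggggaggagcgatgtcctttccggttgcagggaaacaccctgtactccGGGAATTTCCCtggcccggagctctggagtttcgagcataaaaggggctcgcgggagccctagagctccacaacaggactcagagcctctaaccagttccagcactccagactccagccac
Cxcl2, chr5:90903649-90903948, + strand: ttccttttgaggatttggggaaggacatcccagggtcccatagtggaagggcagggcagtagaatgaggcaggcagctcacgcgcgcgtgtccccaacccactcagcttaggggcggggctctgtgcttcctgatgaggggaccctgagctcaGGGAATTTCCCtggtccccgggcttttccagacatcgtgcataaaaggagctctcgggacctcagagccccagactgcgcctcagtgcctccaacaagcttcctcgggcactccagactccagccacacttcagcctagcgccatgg
Cxcl3, chr5:90785851-90786150, + strand: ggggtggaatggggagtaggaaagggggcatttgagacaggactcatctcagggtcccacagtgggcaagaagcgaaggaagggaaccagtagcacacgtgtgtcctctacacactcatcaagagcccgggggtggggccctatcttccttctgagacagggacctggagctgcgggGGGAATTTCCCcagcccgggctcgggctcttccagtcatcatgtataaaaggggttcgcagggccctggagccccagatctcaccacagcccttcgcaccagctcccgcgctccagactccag
Ccl20, chr1:83116516-83116815, + strand: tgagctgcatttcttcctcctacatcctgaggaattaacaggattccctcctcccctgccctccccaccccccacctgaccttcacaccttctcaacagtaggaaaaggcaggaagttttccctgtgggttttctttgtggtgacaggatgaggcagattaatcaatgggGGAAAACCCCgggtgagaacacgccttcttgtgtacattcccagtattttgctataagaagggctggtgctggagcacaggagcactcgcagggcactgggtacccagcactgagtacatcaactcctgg

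GGGAATTTCC, the form of the NF-kB consensus read from the Cxcl1 window, overlaps the consensus matches and began 71 bases before the start of Cxcl1, 97 before that of Cxcl2 and 73 before that of Cxcl3. Both strands were searched, and 29 of 32851 promoter windows, or 0.0883%, held it. As the word was taken from Cxcl1, its match there was fixed in advance. The wider NF-kB consensus was found in 8.46% of all windows and in 4 of the 6, the fourth being Ccl20 with a match on the other strand 80 bases before its start. The other words were searched on both strands as well. TATAAA stood 30 bases before the start in Cxcl3 and in Ppbp, where 13.6% of all windows hold it. The AP-1 word TGANTCA was found in Ppbp (7.81% of all windows) and the C/EBP word TTGCNNAA in Csf2 (10.8%). A match is a run of letters and does not show that a factor binds there.

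At the other end of the messenger RNA, 7 of the 10 genes held several ATTTA pentamers. ATTTA pentamers are the core of AU-rich elements, which bind proteins that speed up or slow down the decay of a messenger RNA. In the 3′ untranslated region of the longest protein-coding transcript (GENCODE M21, mm10) there were 7 of them in Cxcl1, 11 in Cxcl2, 5 in Cxcl3, 5 in Cxcl5, 9 in Ccl20, 6 in Csf3 and 9 in Csf2. Ppbp and Ccl2 had 1 each and Cxcl16 had 2. Per kilobase this came to between 4.5 and 28.4 for the first 7 genes and between 1.41 and 3.64 for the other 3, against 1.93 over the 3′ untranslated regions of 20964 genes. The longer word TTATTTATT occurred in Cxcl1 (2), Cxcl2 (4), Cxcl3 (1) and Csf2 (4), and in 7.58% of all genes. The 30 bases of each region with the most pentamers are shown for all 10 genes, with the pentamers in capitals, and hold between 1 (Cxcl5, Ppbp, Cxcl16 and Ccl2) and 5 of them (Cxcl2 and Csf2).
Cxcl1, chr5:90892602-90892631, + strand: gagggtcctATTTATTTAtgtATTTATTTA
Cxcl2, chr5:90905327-90905356, + strand: tATTTATTTAtctatgtATTTATTTATTTA
Cxcl3, chr5:90787629-90787658, + strand: caagatggcatcttATTTAatgtttATTTA
Cxcl5, chr5:90760634-90760663, + strand: agcttcctgctcatctcacaagtgtATTTA
Ppbp, chr5:90769597-90769626, + strand: cgggcaagccaagttgcaacctgcaATTTA
Cxcl16, chr11:70455115-70455144, - strand: ggttttgttgtttagctaagatgttATTTA
Ccl20, chr1:83119055-83119084, + strand: tgtaaagatATTTAatgttctgtttATTTA
Ccl2, chr11:82037193-82037222, + strand: tgatgccttaattaatattaaacttATTTA
Csf3, chr11:98702984-98703013, + strand: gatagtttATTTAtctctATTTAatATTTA
Csf2, chr11:54247329-54247358, - strand: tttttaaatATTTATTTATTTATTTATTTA

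The gene table held 31119105 to 52890140 counts per library with NETs and 43923391 to 64431811 in control medium. Levels are given as CPM, counts scaled by TMM to parts per 1e6, and fold changes come from the quasi-likelihood test of edgeR. Its p-values were adjusted by Benjamini-Hochberg over 13956 genes and called at 0.05. Of these genes 2825 rose and 2605 fell with NETs, and 52% of the called genes were thus higher; with scaling by library size alone 2106 rose and 3763 fell, 35.9% higher. Markers of mammary epithelium were all present, at a summed 4334 to 4537 CPM with NETs and 4085 to 4383 CPM in control medium over 8 genes, of which 2 rose and 3 fell. Of 14 neutrophil markers 7 (Elane, Camp, Ngp, Retnlg, Mmp8, Csf3r, Fpr1) had no count in any library, which allows up to 0.199 CPM in the smallest, and the list summed to 3.06 to 3.41 CPM with NETs and 1.62 to 2.23 CPM in control medium. S100a8 made up most of that sum, at 2.63 ± 0.148 CPM with NETs and 1.38 ± 0.300 CPM in control medium (SD, n = 3). It rose (log2 fold change 0.94, adjusted p = 0.00136 in edgeR), as 1 of 2 tested genes of the list, and Cxcr2 did not pass. Ly6g went the other way, with no count with NETs and 8, 6 and 6 counts in control medium. The counts of Ly6g were too few to be tested. The 10 leukocyte and macrophage markers summed to 112 to 119 CPM with NETs and 55.7 to 61.2 CPM in control medium. Csf1r made up most of the sum with NETs, at 80.2 CPM with NETs and 24.1 CPM in control medium. It was the 1 gene of 4 tested that rose, while Adgre1 and Tyrobp had no count. Ptprc had no count with NETs and 6, 2 and 8 counts in control medium. Cd68 (10.7 CPM with NETs, 12.4 CPM in control medium) and Cd14 (23.6 CPM with NETs, 20.7 CPM in control medium) did not pass. The 10 fibroblast and endothelial markers summed to 75.7 to 82.1 CPM with NETs and 55.1 to 62.7 CPM in control medium, with Dcn and Lum at no count and 2 of 3 tested genes higher (Col1a1, and Cdh5, whose call was lost in 6 of 16 alternatives). What part these markers have in the results was not tested.

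With NETs 7 of the 10 genes fell (Cxcl1, Cxcl2, Cxcl3, Cxcl5, Ccl20, Csf3, Csf2), 1 rose (Cxcl16), and Ppbp and Ccl2 did not pass the test. Over all tested genes 18.7% fell and 20.2% rose, 38.9% in all. At least 2-fold falls were seen in 5 of the 10 (Cxcl1, Cxcl3, Cxcl5, Ccl20, Csf3), against 2.31% of all tested genes, and none of the 10 rose by as much, against 3.65%. In 8 of the 10 every library with NETs lay below every control library, against 24.5% of tested genes. The median log2 fold change of the 10 was -1.02, against -0.0039 over all tested genes. The 10 genes were chosen with earlier results of these data known, so these shares describe the set and do not test it. All 10 passed the filter on low counts, so no gene is left out of these counts. In bulk RNA, fewer cells expressing a gene and less RNA per cell cannot be told apart.

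**Figure D1:**
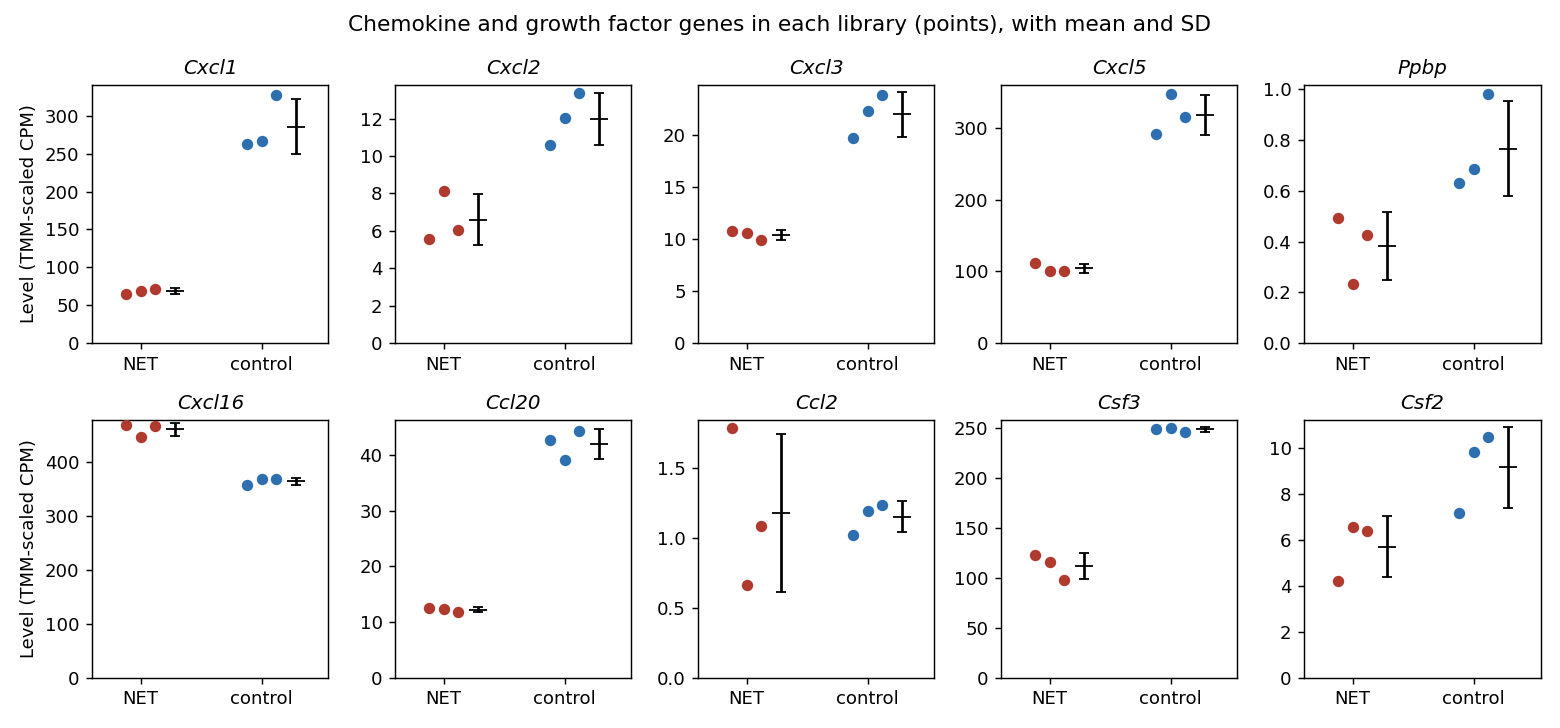
Level of each of the 10 genes in TMM-scaled CPM (vertical axes, each from 0) in the 3 libraries with NETs (red) and the 3 in control medium (blue), with the mean and SD as a bar beside the points. The 2 colours overlap for Ccl2 alone, and Cxcl16 is the gene whose red points lie above the blue ones.

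**Figure D2:**
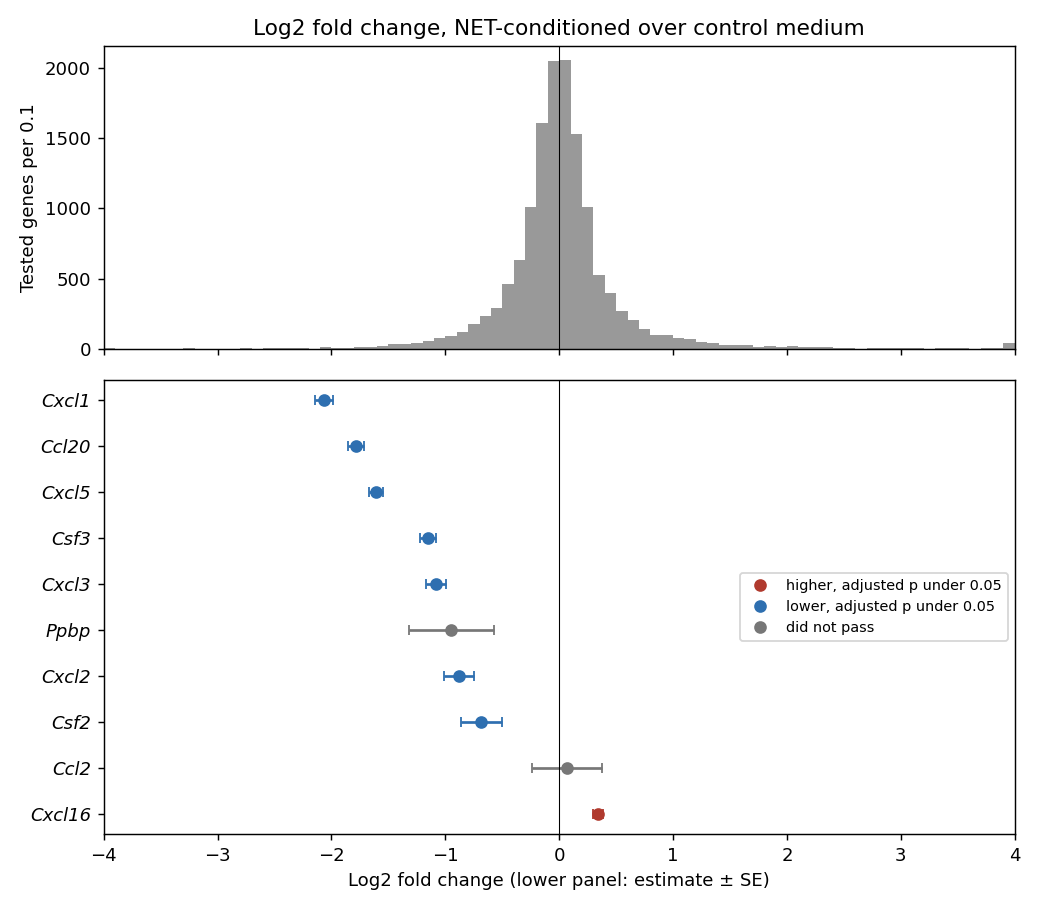
Upper panel: number of tested genes (vertical axis) per 0.1 of log2 fold change, NET-conditioned over control medium, with values past 4 in either direction drawn in the end bins. Lower panel: log2 fold change of the 10 genes with its SE, blue where the gene fell, red where it rose and grey where it did not pass, from -2.06 for Cxcl1 to 0.34 for Cxcl16.

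Among the neutrophil-attracting chemokines, Cxcl1 (KC) fell the most, as it did among all 10 genes. Its level was 64.4, 68.8 and 71.8 CPM with NETs, against 263, 267 and 328 CPM in control medium. Every library with NETs was far below every control library, and control replicate 3 was the highest. The difference was 4.18-fold (log2 fold change -2.06 ± 0.08 SE, adjusted p = 4.74e-10), and its log2 fold change ranked 65 from the lowest among the 13956 tested genes.

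Cxcl5 (LIX), which also acts on Cxcr2, had 112, 101 and 101 CPM with NETs, against 292, 348 and 316 CPM in control medium. The groups lay apart, and the 3 libraries with NETs differed by little. It was 3.05-fold lower (log2 fold change -1.61 ± 0.06 SE, adjusted p = 1.26e-11). Cxcl5 and Cxcl1 together made up most of the counts of the CXC group in both media.

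Cxcl2 (MIP-2) and Cxcl3 are close relatives of Cxcl1 and were present at far lower counts. Cxcl2 had 5.58, 8.14 and 6.07 CPM with NETs, against 10.6, 12.03 and 13.4 CPM in control medium. NET replicate 2 came nearest to the control range without entering it, and the gene was 1.84-fold lower (log2 fold change -0.88 ± 0.13 SE, adjusted p = 5.91e-05). Cxcl3 had 10.8, 10.5 and 9.85 CPM with NETs, against 19.7, 22.3 and 23.9 CPM in control medium. The groups did not overlap, and it was 2.12-fold lower (log2 fold change -1.08 ± 0.09 SE, adjusted p = 4.21e-08). Exons of Cxcl1, Cxcl2 and Cxcl3 overlap no other gene of the table, but how reads that map to several places were counted is not given.

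Ppbp, the precursor of the platelet chemokine Cxcl7, was at the edge of detection. It had 22, 7 and 22 counts with NETs and 42, 31 and 54 counts in control medium, or 0.491, 0.232 and 0.426 CPM with NETs against 0.631, 0.686 and 0.980 CPM in control medium. Every library with NETs was below every control library, but the test was not passed (log2 fold change -0.95 ± 0.37 SE, adjusted p = 0.0532). The call turned with the settings: adjusted p was 0.0472 with upper-quartile scaling, 0.0381 with library size alone, 0.0432 with halved counts and 0.0495 without NET replicate 1, and up to 0.236 under the others.

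Summed over the 5 CXC genes, the libraries with NETs held 193, 189 and 189 CPM, against 586, 650.2 and 682 CPM in control medium. The mean was 3.36-fold lower with NETs (190.2 ± 2.57 CPM, against 639 ± 49.0 CPM in control medium; SD, n = 3). The sum varied by little among the libraries with NETs and by more among the control libraries.

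Of the chemokines for other leukocytes, Ccl20 fell and Cxcl16 rose. Ccl20 attracts lymphocytes and dendritic cells that carry Ccr6. It had 12.5, 12.4 and 11.8 CPM with NETs, against 42.6, 39.1 and 44.4 CPM in control medium. The groups were well apart and both were tight, and the gene was 3.44-fold lower (log2 fold change -1.78 ± 0.07 SE, adjusted p = 4.22e-12).

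Cxcl16 is made as a membrane protein and binds Cxcr6 on T and NKT cells. Its level was 468, 446 and 466 CPM with NETs, against 356, 367 and 367 CPM in control medium. All libraries with NETs were above all control libraries. The rise was 1.26-fold (log2 fold change 0.34 ± 0.05 SE, adjusted p = 1.67e-05). Of its exon bases 18.3% overlap Zmynd15 on the other strand, a gene that reached at most 4.55 CPM in any library, and whether counting used strand is not given.

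Ccl2 (MCP-1), the monocyte chemokine that acts on Ccr2, was nearly silent in these cells. It had 80, 20 and 56 counts with NETs and 68, 54 and 68 counts in control medium. The groups overlapped, with 1.78, 0.664 and 1.09 CPM with NETs around the 1.02, 1.19 and 1.23 CPM of control medium, and NET replicate 1 alone was above the controls. The log2 fold change was 0.07 ± 0.30 SE (adjusted p = 0.886), an error too wide at these counts to tell a moderate change in either direction. Its sign turned without NET replicate 1 (-0.35) and without control replicate 1 (-0.017).

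Both growth factor genes fell. Csf3 had 123, 116 and 97.4 CPM with NETs, against 249.6, 250.2 and 246 CPM in control medium. The libraries with NETs had an SD of 13.1 CPM, while the control libraries were nearly equal at 2.15 CPM, and the groups did not overlap. It was 2.22-fold lower (log2 fold change -1.15 ± 0.07 SE, adjusted p = 3.65e-09). Csf2, whose product also supports macrophages and dendritic cells, had 4.19, 6.58 and 6.38 CPM with NETs, against 7.19, 9.82 and 10.5 CPM in control medium. Replicate 1 was the lowest library in each group, and NET replicate 2 came close to control replicate 1. The gene was 1.61-fold lower (log2 fold change -0.68 ± 0.18 SE, adjusted p = 0.0084). Of its exon bases 12% overlap Gm12223 on the other strand, which reached at most 0.398 CPM. Neither Csf3r nor Csf2ra, receptor genes of the pair, had a count in any library.

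The genes did not move by the same factor. The ratio of each gene's counts to those of Cxcl1 in the same library is free of scaling between libraries, and Cxcl1 was taken as the base with its large fall already known, which fixes the direction of most differences. Ccl20 stayed closest to it: its log2 ratio to Cxcl1 was -2.37, -2.47 and -2.60 with NETs, against -2.62, -2.77 and -2.89 in control medium. Here the groups came nearest to each other, with NET replicate 3 just above control replicate 1. Cxcl5 followed, with 0.80, 0.55 and 0.49 with NETs and 0.15, 0.38 and -0.05 in control medium, a mean difference of 0.45. Csf3 had more counts than Cxcl1 in all 3 libraries with NETs (log2 ratio 0.93, 0.75 and 0.44) and fewer in all 3 control libraries (-0.076, -0.093 and -0.41). The mean difference was 0.98 for Cxcl3, 1.18 for Cxcl2, 1.37 for Csf2 and 2.40 for Cxcl16. In all 9 ratios the groups did not overlap, and each gave p = 0.1 in an exact two-sided permutation test, which is the smallest p that 3 libraries against 3 allow, so none can pass.

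**Figure D3:**
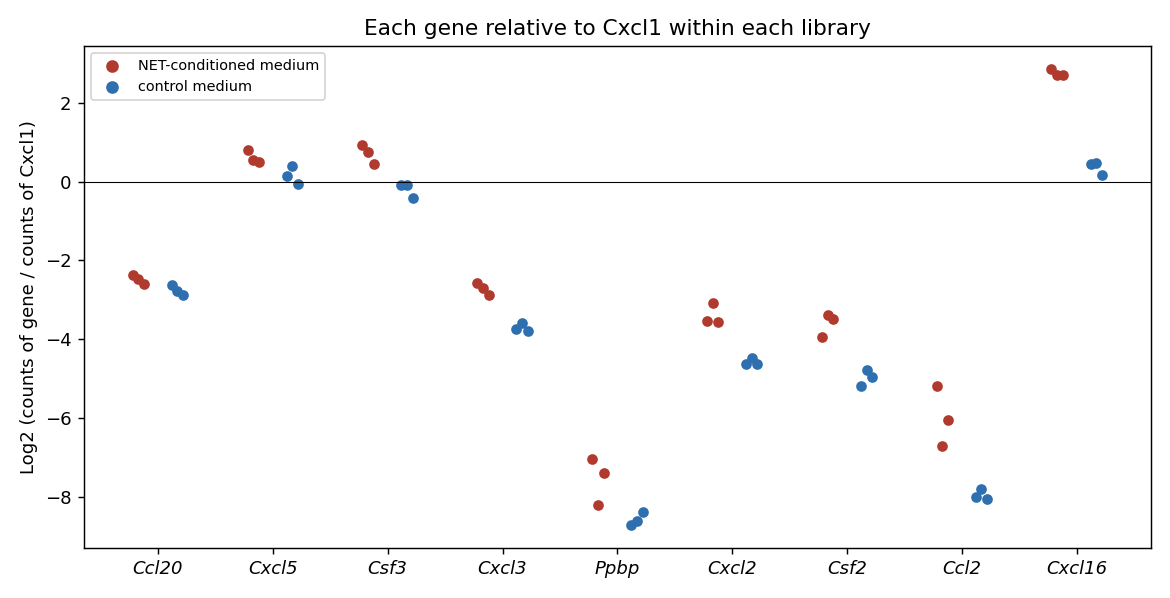
Log2 ratio of each gene's counts to those of Cxcl1 in the same library (vertical axis) for the other 9 genes (horizontal axis, ordered by the difference between the media), with libraries with NETs in red to the left and control libraries in blue. Ccl20 and Cxcl5 lie closest together and Cxcl16 farthest apart, at a mean of 2.75 with NETs and 0.35 in control medium.

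Compared per length, Cxcl16 took the first place with NETs. In CPM per kilobase of the table's exons the order with NETs was Cxcl16 (152 ± 3.97), Csf3 (79.2 ± 9.27), Cxcl5 (56.1 ± 3.45) and Cxcl1 (36.4 ± 1.99), while in control medium it was Csf3 (176 ± 1.52), Cxcl5 (171 ± 15.1), Cxcl1 (152 ± 19.4) and Cxcl16 (120.3 ± 2.08; SD, n = 3). No neighbours among these 4 lay within an SD of each other with NETs, whereas Csf3 and Cxcl5, and Cxcl5 and Cxcl1, did in control medium. Ccl20 came next at 8.62 CPM per kilobase with NETs and 29.6 in control medium, and Csf2 after it at 7.14 with NETs and 11.5 in control medium. On this scale Cxcl3, Cxcl2, Ccl2 and Ppbp were below 7 per kilobase in both media. The exon length of the table includes retained introns, which for Cxcl1 makes it 1875 bases against 953 in its longest protein-coding transcript. With that transcript's length, a choice made after the data were seen, Cxcl1 came after Cxcl16 and Csf3 with NETs at 71.7 ± 3.91 CPM per kilobase and stood highest in control medium at 300.03 ± 38.1. Cxcl3 moved as well, to 10.2 ± 0.465 CPM per kilobase with NETs, ahead of Ccl20 at 8.64, and to 21.6 ± 2.09 in control medium, below Ccl20 at 29.7.

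Within each medium 1 library was often the highest. NET replicate 1 was the highest library with NETs for Cxcl3, Cxcl5, Ppbp, Cxcl16, Ccl20, Ccl2 and Csf3, while the lowest was replicate 1, 2 or 3 depending on the gene. Control replicate 3 was the highest control library for Cxcl1, Cxcl2, Cxcl3, Ppbp, Ccl20, Ccl2 and Csf2, and control replicate 1 the lowest for Cxcl1, Cxcl2, Cxcl3, Cxcl5, Ppbp, Cxcl16, Ccl2 and Csf2. The distance of a control library from the group's mean log2 level reached 0.38 for Ppbp, -0.33 for Csf2 and 0.20 for Cxcl1. For Csf3 it was at most 0.014.

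Receptors for these ligands were mostly silent in the tumour cells. Of 14 genes for their receptors and for decoy receptors, 6 had no count in any library and 3 were tested. Of these 1 rose, 1 fell and 1 did not pass, where 20.2% of all tested genes rose and 18.7% fell. The median log2 fold change of the 3 was 1.08, which is the value of Cxcr2. Cxcr2 itself had 0.481 CPM with NETs (16 to 24 counts) and 0.220 CPM in control medium (10 to 16 counts) and did not pass (adjusted p = 0.0575). The 2 called genes, Ackr3 and Ccrl2, were listed as decoy receptors, and whether they bind any of these ligands was not tested. Ackr3, an atypical chemokine receptor that does not signal through G proteins, rose 2.81-fold. It had 34.0 ± 1.82 CPM with NETs, against 12.1 ± 0.558 CPM in control medium (adjusted p = 4.86e-11 in edgeR). Ccrl2, a receptor-like protein that presents the chemoattractant chemerin, was 2.50-fold lower at 3.25 ± 0.605 CPM with NETs, against 8.04 ± 0.707 CPM in control medium (adjusted p = 8.70e-07).

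Among 28 other chemokine genes 13 had no count in any library and 9 were tested, of which 1 rose and 2 fell (median log2 fold change -0.081), near the 20.2% and 18.7% of all tested genes. Ccl5 (RANTES), which attracts T cells and monocytes, had 17.2 ± 1.27 CPM with NETs and 32.7 ± 5.51 CPM in control medium (1.90-fold lower, adjusted p = 1.11e-05). Cx3cl1 (fractalkine), like Cxcl16 a membrane-bound chemokine, fell to 89.0 ± 4.55 CPM with NETs, against 115 ± 2.32 CPM in control medium (log2 fold change -0.37, adjusted p = 2.29e-05). Cxcl10, an interferon-induced chemokine, had 6.07 CPM with NETs and 5.33 CPM in control medium and did not pass (adjusted p = 0.234). The gene that rose, Ccl4, was at 0.362 CPM with NETs and 0.119 CPM in control medium, with the call lost in 5 of 14 alternatives, and it was named after its values were seen.

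Proteases that cut or shed chemokines rose more often than they fell. Of 9 genes tested on this list, 5 rose and 2 fell (median log2 fold change 0.25, against 20.2% higher and 18.7% lower of all tested genes). The 2 that did not pass were Rhbdf1 and Rhbdf2, which are related to proteases but do not cut proteins themselves. The 5 include Mmp12, at 0.915 CPM with NETs and 0.123 CPM in control medium. Mmp9, which trims CXC chemokines, stood at 1770 ± 66.6 CPM with NETs, against 127 ± 6.39 CPM in control medium (log2 fold change 3.80, adjusted p = 2.55e-17). Mmp13 rose 2.02-fold and Mmp14 1.83-fold, while Ctsl was 1.35-fold lower. Of the sheddases of Cxcl16 and Cx3cl1, Adam10 had 279 ± 6.19 CPM with NETs and 234 ± 7.20 CPM in control medium (log2 fold change 0.25, adjusted p = 0.000374), and Adam17 had 151 ± 5.96 CPM with NETs and 189 ± 5.98 CPM in control medium (-0.33, adjusted p = 4.34e-05). Both were named after their values were seen.

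Cytokines of the IL-1, IL-17 and TNF pathways switch these genes on. The list holds such cytokines and receptors, the antagonist Il1rn, and signalling proteins such as Irak1, Myd88 and Traf3ip2, of which Myd88 and Traf3ip2 fell. Of 19 genes tested 2 rose and 7 fell (median log2 fold change -0.079), where 20.2% of all tested genes rose and 18.7% fell. More genes of the list thus fell than rose, and the list was not tested as a set. Tnfrsf1b, a TNF receptor, rose to 102 CPM with NETs, against 66.4 CPM in control medium, and Tnfrsf1a, the other one, fell to 78.2 CPM with NETs, against 100.8 CPM in control medium. Tnf itself fell to 4.09 ± 0.640 CPM with NETs, against 5.64 ± 0.594 CPM in control medium (log2 fold change -0.45, adjusted p = 0.0182), a call lost in 3 of 16 alternatives. The rise of Il1r1, at 2.41 CPM with NETs and 1.65 CPM in control medium (adjusted p = 0.0457), was lost in 10 of 16 alternatives. Il1a, the most abundant cytokine of the list, had 652 CPM with NETs and 665 CPM in control medium and did not pass (adjusted p = 0.693).

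Of the 15 tested genes of NF-kB subunits and inhibitors 8 rose and 1 fell (median log2 fold change 0.18), against 20.2% higher and 18.7% lower of all tested genes. The 8 include Relb and Ikbkg, whose calls were lost in 7 and 5 of 16 alternatives. Nfkbie, an inhibitor of NF-kB, rose 2.08-fold to 40.2 ± 2.62 CPM with NETs, against 19.4 ± 0.715 CPM in control medium (adjusted p = 1.77e-09). The feedback inhibitors Tnfaip3 and Tnip1 rose 1.78-fold and 1.48-fold. Nfkbia, the gene of IkB-alpha, was the member that fell, to 79.8 ± 5.47 CPM with NETs, against 113 ± 4.45 CPM in control medium (log2 fold change -0.50, adjusted p = 2.00e-06). The transcript of Rela, the main activating subunit, had 119.9 CPM with NETs and 127 CPM in control medium and did not pass (adjusted p = 0.226).

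Nfkbia also holds the word GGGAATTTCC in its promoter window. Of the 29 genes with that word 11 were tested, and besides Cxcl1, Cxcl2 and Cxcl3 these were 8 genes, of which 2 rose (Trio and Zfp84), 1 fell (Nfkbia) and 5 did not pass, and the median log2 fold change of these 8 was 0.025. The share called was near the 38.9% of all tested genes.

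Of 8 tested transcription factor genes tied to these promoters 2 rose and 4 fell (median log2 fold change -0.24), where 20.2% of all tested genes rose and 18.7% fell. Hmga1, a chromatin protein that assists NF-kB, fell to 173 ± 20.1 CPM with NETs, against 271 ± 15.6 CPM in control medium (adjusted p = 1.10e-05). Cebpd (log2 fold change -0.51) and Cebpg (-0.28) fell too, and Stat3 rose (0.31). Cebpb rose as well, to 266 ± 8.20 CPM with NETs, against 219 ± 16.9 CPM in control medium (log2 fold change 0.28, adjusted p = 0.000805 in edgeR). It was named after its values were seen. Among 14 regulators of messenger RNA decay 8 rose and 2 fell (median log2 fold change 0.17; 20.2% higher and 18.7% lower over all tested genes), and the call of Khsrp, 1 of the 8, was lost in 6 of 16 alternatives. Zfp36 (tristetraprolin), which binds ATTTA repeats and speeds decay, fell to 22.1 ± 1.41 CPM with NETs, against 33.2 ± 4.49 CPM in control medium (log2 fold change -0.58, adjusted p = 0.000104). Its relative Zfp36l1 rose to 146 CPM with NETs, against 106 CPM in control medium (log2 fold change 0.47, adjusted p = 2.04e-05). Arid5a, which protects some inflammatory messenger RNAs, rose 1.74-fold to 99.99 ± 5.00 CPM with NETs, against 57.4 ± 3.62 CPM in control medium (adjusted p = 1.05e-08). Traf5 had 0.844 CPM with NETs and 1.40 CPM in control medium (adjusted p = 0.046), a call lost in 8 of 16 alternatives.

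**Figure D4:**
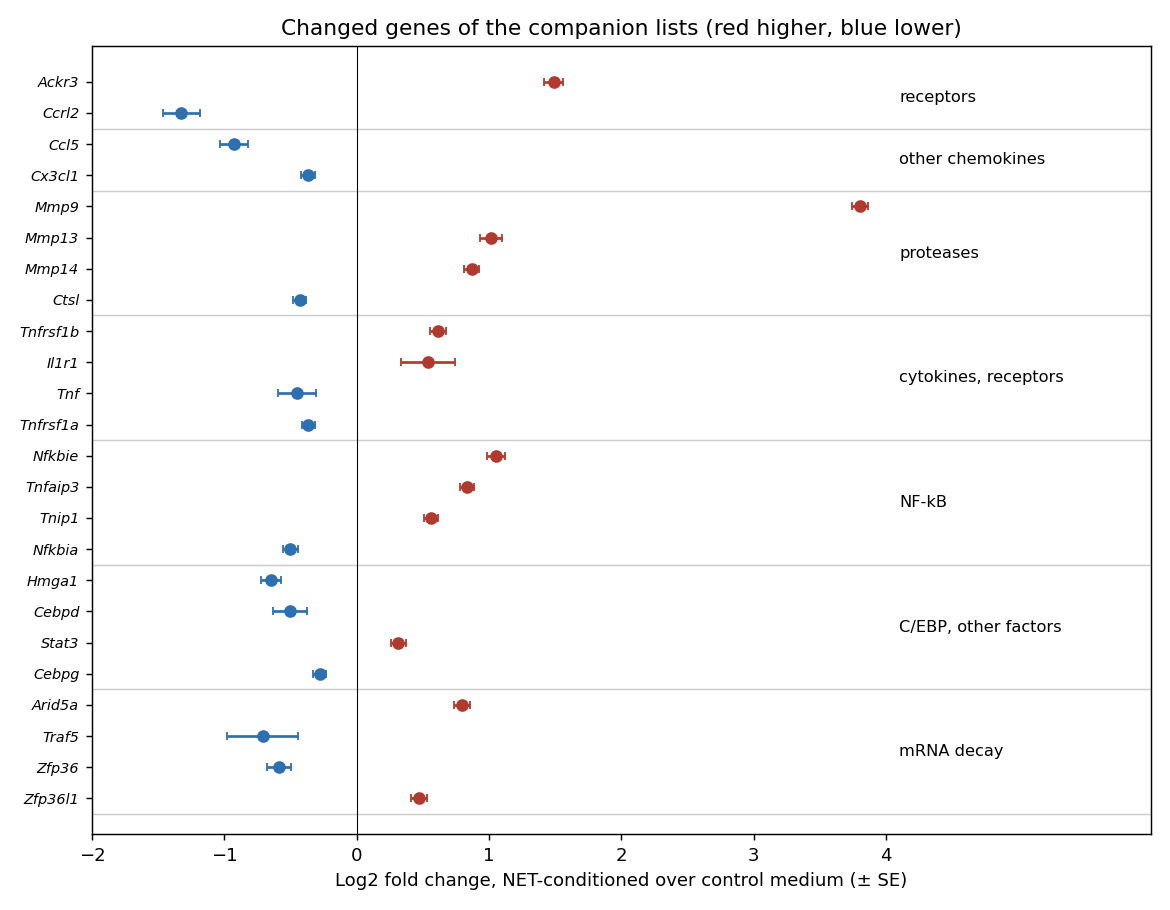
Log2 fold change with SE (horizontal axis) of up to 4 changed genes from each companion list, rows grouped by list, with genes that rose in red and genes that fell in blue. Mmp9 is the farthest to the right at 3.80 and Ccrl2 the farthest to the left at -1.32.

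Genes whose levels followed Cxcl1 most closely over the 6 libraries were looked for among all tested genes, by the root mean square difference of log2 CPM after centring each gene on its mean. The nearest were Speer3 (0.109), the integrin gene Itga8 (0.127), the prolyl hydroxylase Egln3 (0.136), the aldehyde dehydrogenase Aldh3a1 (0.149) and the coactivator Eya2 (0.163). Speer3 belongs to a family of near-identical copies, so its counts are uncertain. Ccl20 was the seventh nearest (0.174) and Cxcl5 the 24th (0.275), while Csf3 and Cxcl3 stood at places 161 and 174. Itga8, for one, had 2.84 ± 0.289 CPM with NETs and 13.6 ± 0.564 CPM in control medium.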

How the data were processed

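Messenger RNA of 410.4 cells was sequenced in 3 libraries with NETs and 3 in control medium, with a stranded kit per the labels' protocols. The authors deposited whole-number counts per gene symbol in featureCounts format; STAR 2.7.10a, featureCounts of Subread 2.0.3 and mm10 are named in the submitters' processing notes. Of the 10 spans in the deposited file 0 overlap the gene's mm10 span, so the table's positions follow a build that is not named here and are kept apart from the mm10 sequences. Of the counts from 1 to 20, 74.8% to 78.4% were even in each library, so mates of a pair appear to have been counted separately; where a gene had no count the limit was taken as 3 fragments (6 counts) and cover counting error only.

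Libraries were scaled by TMM, genes filtered with filterByExpr (minimum count 10), and the media compared in R 4.3.3 with edgeR 4.0.16 (robust glmQLFit, then glmQLFTest), with the medium as the only term. The SE is the log2 fold change divided by the root of F. The script was tested on simulated data. Pairs of replicates had a chi-square of 9.59 to 25.1 per degree of freedom over genes, so no library was a copy of another. The common biological coefficient of variation was 0.062. The 10 genes and the companion lists were chosen with earlier results of these data known. The text names all 10 genes, up to 4 changed genes of each companion list (the largest log2 fold changes at a mean of at least 1 CPM), the 5 genes most like Cxcl1, and changed neighbours within 200 kb; others were named after their values were seen. Alternatives were RLE, upper-quartile and library-size scaling, 2 other low-count filters, DESeq2 1.42.0, limma-voom 3.58.1, halved counts, thinned libraries, a replicate block and leaving out each library.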

Additional observations from a re-analysis of the deposited data

How the results depend on the processing

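The counts of 7 genes that fell and 1 that rose were recomputed under 16 alternatives. The number that rose was 1 in each. The number that fell was 7 or, where Ppbp passed, 8 (upper-quartile scaling, library size alone, halved counts, without NET replicate 1). Over all alternatives the log2 fold change ran from -2.13 to -1.96 for Cxcl1 and from -0.84 to -0.50 for Csf2, whose adjusted p stayed at or under 0.0349. Ccl2 changed sign without NET replicate 1 (-0.35) and without control replicate 1 (-0.017), over a range from -0.35 to 0.31. Deviations of same-numbered libraries from their group means correlated with r = 0.11, -0.05 and 0.05. NET replicate 1 and control replicate 1 correlated best with each other, but not every library correlated best with its own number. With 3 libraries per group these values cannot decide whether replicates were paired. With the replicate block 7 of the genes fell and 1 rose, and 5682 genes were called in place of 5430. Counts on the companion lists moved too. The NF-kB genes that rose ran from 6 to 8 (6 with library size alone and without NET replicate 1 or 3). Genes of the protease list that rose ran from 4 to 6. Genes of the cytokine and receptor list that fell ran from 5 (without NET replicate 1) to 8. The transcription factors that fell ran from 3 to 5. The decay regulators that rose ran from 7 to 8, and those that fell from 1 to 3. Transcript length moved the level per kilobase of Cxcl1, Cxcl3, Cxcl5, Cxcl16 and Ccl2. Levels of Ppbp and Ccl2 are limited by depth, at 7 to 80 counts per library.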

Other observations

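Genes next to the members were compared too. In the coordinates of the deposited table the 5 CXC genes lie within 146579 bases of chromosome 5, from 90907219 to 91053797, all on the + strand. Of 15 other genes within 200 kb, 7 had no count in any library, among them the chemokine genes Pf4 and Cxcl15, which lie between the members. Of the 3 tested, Rassf6, a RAS-association domain gene, fell to 39.2 ± 1.02 CPM with NETs, against 69.0 ± 1.69 CPM in control medium (1.76-fold, adjusted p = 2.48e-09 in edgeR), and Mthfd2l, a mitochondrial folate enzyme gene, to 16.7 ± 1.71 CPM with NETs, against 20.2 ± 0.240 CPM in control medium (adjusted p = 0.012 in edgeR). The growth factor gene Epgn had 0.782 CPM with NETs and 1.13 CPM in control medium and did not pass (adjusted p = 0.161 in edgeR).

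Around Ccl2 on chromosome 11 none of 10 neighbours, Ccl7, Ccl11, Ccl12, Ccl8 and Ccl1 included, had enough counts to be tested, nor had any of 19 around Ccl20. Over all tested genes 18.7% fell and 20.2% rose, and the neighbours were not tested against these shares. Of 12 tested neighbours of Csf3, 4 fell (Med24, Thra and a gene model besides Nr1d1), with Nr1d1, a repressor of the circadian clock, at 22.8 ± 0.987 CPM with NETs and 41.2 ± 2.27 CPM in control medium. Near Csf2, 2 of 4 tested rose. P4ha2 had 7.39 CPM with NETs and 5.53 CPM in control medium, and Acsl6 only 0.659 CPM with NETs and 0.288 CPM in control medium. Near Cxcl16, 5 of 15 tested neighbours fell (Arrb2, Med11, Rnf167, Gm12319 and a gene model). Arrb2 and Med11 were 1.20-fold lower and Rnf167 1.13-fold. Gm12319 had only 0.555 CPM with NETs and 1.08 CPM in control medium. The gene model had 0.146 CPM with NETs and 0.453 CPM in control medium.

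The alarmin gene Il33, named after its values were seen, had 12, 14 and 8 counts with NETs and 122, 54 and 60 counts in control medium (log2 fold change -2.31, adjusted p = 0.000126 in edgeR).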
